A study of Mus musculus with 20 samples.

Results

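The 10 genes of the circadian clock described here, in abdominal aortas of Rab22a knockout (KO) and wild type (WT) mice, were Arntl, Clock, Npas2, Per1, Per2, Per3, Cry1, Cry2, Nr1d1 and Dbp. They were chosen by name, all 10 were found among the 42890 genes of the files, and 9 were among the 15010 genes that passed the filter on low values (at least 1 FPKM in at least 5 libraries). FPKM is a read count scaled to transcript length and library total. The mice were of the C57BL/6 strain, and 4 groups of 5 mice were sequenced, each mouse as 1 library: KO with angiotensin II (AngII), KO with saline, WT with AngII and WT with saline. AngII, a peptide hormone that constricts arteries, was given at 500 ng/kg/min, and both treatments lasted 14 days. RNA was total RNA freed of ribosomal RNA. The labels do not state age, sex, the light cycle, the hour at which aortas were taken or how the Rab22a allele was made.

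The mammalian clock is a feedback loop. ARNTL (also called BMAL1) pairs with CLOCK or its relative NPAS2 and switches on the Per, Cry, Nr1d1 and Dbp genes through E-box sequences. PER and CRY proteins then inhibit that pair, while NR1D1 (REV-ERB alpha) silences Arntl and Cry1 through ROR response elements (RORE), and DBP activates genes through D-box sequences. In vessels, as in most tissues, the loop makes these RNAs rise and fall over the day, with Arntl out of phase with Nr1d1 and Dbp, and it takes part in the daily course of blood pressure.

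The promoters of 9 of the 10 genes (all but Per2) had entries in the RefSeq table of GRCm38.p6, the assembly called mm10, each covering 250 bases before and 50 bases after a start site. Shown are the windows of Per1, Cry1 and Arntl that held a motif of those searched. The windows of Cry2 and Clock held none, and Per1 and Arntl each had another window without a motif. Capitals mark the E-box CACGTG, the D-box TTATGNAA and the RORE TAGGTCA, searched on both strands.
Per1, chr11:69098699-69098998, plus strand: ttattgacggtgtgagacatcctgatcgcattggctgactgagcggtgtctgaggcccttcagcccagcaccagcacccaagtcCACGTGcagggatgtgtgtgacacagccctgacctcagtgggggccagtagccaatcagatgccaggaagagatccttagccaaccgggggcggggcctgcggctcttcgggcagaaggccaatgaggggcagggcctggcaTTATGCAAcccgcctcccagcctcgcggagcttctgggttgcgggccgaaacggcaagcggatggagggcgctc
Cry1, chr10:85185005-85185304, minus strand: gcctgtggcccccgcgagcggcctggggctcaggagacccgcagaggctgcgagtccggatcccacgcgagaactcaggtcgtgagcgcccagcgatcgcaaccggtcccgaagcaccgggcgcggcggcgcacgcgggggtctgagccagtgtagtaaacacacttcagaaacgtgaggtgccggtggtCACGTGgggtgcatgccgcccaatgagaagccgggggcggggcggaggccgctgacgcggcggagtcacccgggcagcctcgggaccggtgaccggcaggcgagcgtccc
Arntl, chr7:113207261-113207560, plus strand: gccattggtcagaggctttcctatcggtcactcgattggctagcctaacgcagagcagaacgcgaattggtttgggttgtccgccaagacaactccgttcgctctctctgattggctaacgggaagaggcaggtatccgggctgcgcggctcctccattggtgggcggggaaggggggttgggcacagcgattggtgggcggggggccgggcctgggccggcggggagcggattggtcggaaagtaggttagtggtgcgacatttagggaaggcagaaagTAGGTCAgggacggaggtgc
The Per1 window shown held an E-box beginning 166 bases before the start site and a D-box beginning 24 bases before it, and the 2 motifs did not overlap. The Cry1 promoter held an E-box beginning 60 bases before the start site, and the Arntl window held a RORE beginning at base 31 after it. Per3 held 2 D-boxes, at 205 and 158 bases before its start site (chr4:151044616-151044915, minus strand), and no other of the 13 promoter windows of these genes held a motif. Of all 32851 promoters, 7.15% held the E-box, 3.38% the D-box and 2.61% the RORE. A match describes letters only, and an E-box or RORE elsewhere in these genes was not searched.

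The libraries corresponded to 68700000 to 77400000 reads each, and 12504 to 14342 genes per library reached 1 FPKM. Smooth muscle and endothelial genes were present in every library, with Myh11 at 126 to 401 FPKM and Cdh5 at 47.6 to 75.4 FPKM. The coding Rab22a transcript ENSMUST00000029024 lay between 0 and 0.00563 FPKM in the 10 KO libraries and between 1.87 and 8.62 FPKM in the 10 WT libraries. Another transcript of the gene, ENSMUST00000142820, went the other way, at 7.43 to 11.1 FPKM in KO and 0.162 to 3.61 FPKM in WT libraries. Summed Rab22a RNA was therefore not absent in KO, and it spanned 2.65 to 11.1 FPKM over the 20 libraries. RNA of lymphocytes varied widely: summed FPKM of 6 B and plasma cell markers spanned 8.12 to 298 in KO AngII, 5.90 to 449 in KO saline, 248 to 522 in WT AngII and 89.9 to 560 in WT saline libraries, and none of the 6 was at 0 in any library. The sum of 6 T and NK cell markers spanned 3.49 to 151 FPKM in KO AngII, 4.19 to 277 in KO saline, 73.6 to 147 in WT AngII and 23.1 to 151 in WT saline libraries, with Cd8a at 0 in at least 1 library of each KO group. Skeletal muscle RNA varied more widely: the sum of 8 of its markers spanned 5.94 to 3257 FPKM in KO AngII, 3.81 to 4273 in KO saline, 8.69 to 3535 in WT AngII and 7.43 to 6116 in WT saline libraries, with Myh1 at 0 in at least 1 library of each group. In bulk tissue, fewer cells of a type and less RNA per cell cannot be told apart.

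Nr1d1 and Dbp were the most abundant of the 10 genes in every library, and Npas2 and Arntl the least abundant by median. On the FPKM scale, medians over the 20 libraries were 75.6 for Nr1d1, 40.2 for Dbp, 14.0 for Cry2, 7.79 for Clock, 7.04 for Per1, 4.26 for Per2, 3.88 for Cry1, 1.59 for Per3, 0.608 for Npas2 and 0.468 for Arntl. Nr1d1 exceeded Dbp, Dbp exceeded Cry2 and Cry2 exceeded Clock in 20 of 20 libraries. Neighbours further down crossed: Clock was above Per1 in 12 of 20 libraries, Per2 above Cry1 in 12 and Npas2 above Arntl in 9. These levels are set out by library in the plot of FPKM by group.

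**Figure D1:**
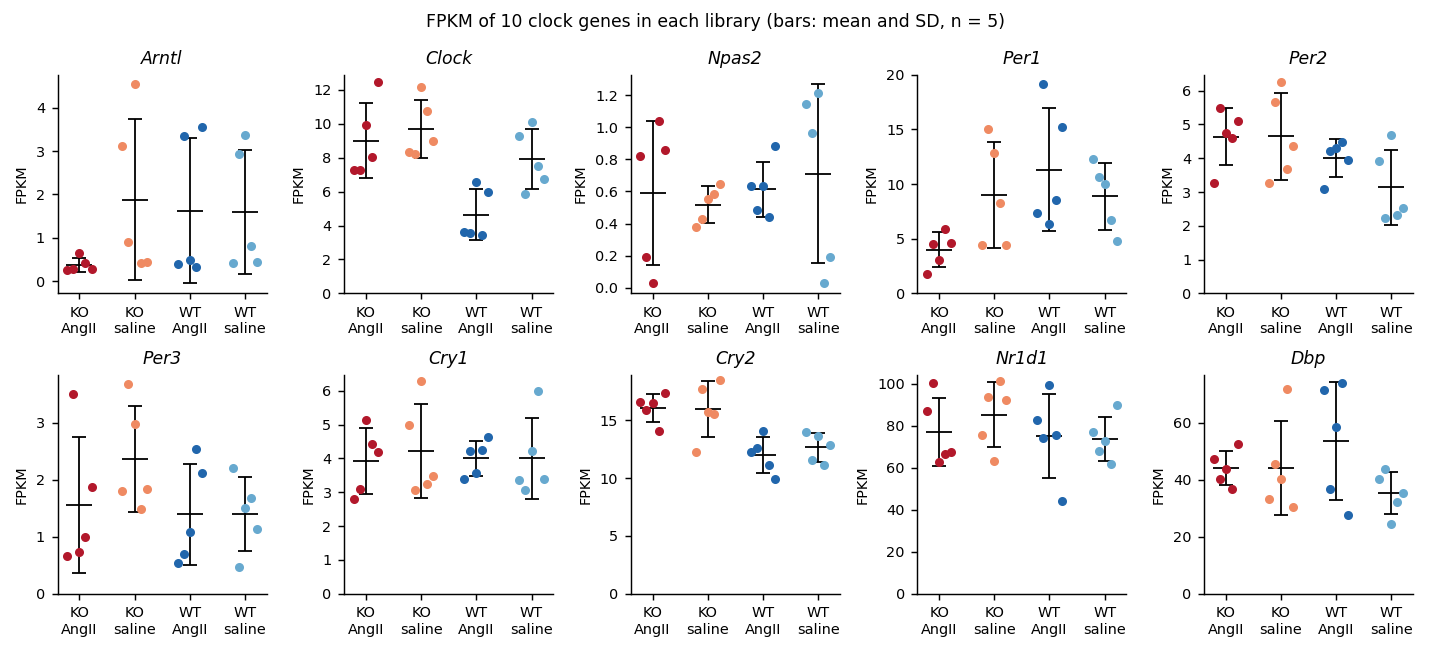
FPKM (vertical axes, starting at or near 0) of the 10 clock genes in each of the 20 libraries, by group; points are libraries and bars are the mean and SD of 5. Cry2 and Clock have higher means in KO than in WT under both treatments, with overlap of libraries under saline. Per1 has its lowest mean in KO AngII. Arntl splits into separate levels in every group but KO AngII, and Npas2 splits in KO AngII and WT saline.

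Of the 9 tested clock genes, 2 were called between the genotypes, and both were higher in KO aortas. Cry2, a repressor of the loop, was higher in KO than in WT over both treatments, and Clock, the partner of ARNTL, was higher over both treatments and under AngII. No clock gene was called for AngII against saline in either genotype. Calls were made with limma on log2(FPKM + 1), at a Benjamini-Hochberg adjusted p under 0.05 over all 15010 genes.

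Cry2 stood at 16.6, 15.9, 16.5, 14.1 and 17.4 FPKM in KO AngII libraries and at 12.3, 12.6, 14.1, 11.2 and 9.94 FPKM in WT AngII libraries. Under saline it stood at 12.3, 17.7, 15.8, 15.5 and 18.5 FPKM in KO and at 14.0, 11.6, 13.7, 11.1 and 12.9 FPKM in WT libraries. Under AngII the genotypes did not overlap, and under saline KO replicate 1 alone lay within the WT range. The share of all genes without overlap under AngII was not counted, for Cry2 here or for Clock and Per1 below. In that comparison 17.3% of all genes had an unadjusted limma p under 0.05. Over both treatments Cry2 averaged 16.03 ± 1.81 FPKM in KO and 12.3 ± 1.37 FPKM in WT aortas (SD, n = 10 each). The difference of log2(FPKM + 1) was 0.35 (SE 0.08), a 1.28-fold difference of FPKM + 1, with a limma adjusted p of 0.0212. Under AngII alone it was 0.40 (SE 0.11, adjusted p = 0.0742) and under saline alone 0.31 (SE 0.11, adjusted p = 0.558), so neither was called. Cry2 also varied least within groups: its SD of log2(FPKM + 1) within groups was 0.16, with 93.6% of tested genes at or above it and a median of 0.35 over them. Transcript ENSMUST00000090559 carried 94.4% of its FPKM. It shares 295 of 6320 exon bases with D930015M05Rik on the opposite strand, which had a mean of 0.262 FPKM.

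Clock stood at 7.28, 7.27, 9.92, 8.04 and 12.4 FPKM in KO AngII libraries and at 3.64, 3.56, 6.56, 3.45 and 5.97 FPKM in WT AngII libraries. Under saline it stood at 8.37, 8.19, 12.2, 10.8 and 8.97 FPKM in KO and at 9.28, 5.85, 10.1, 7.53 and 6.72 FPKM in WT libraries. All 5 WT AngII libraries lay below the lowest KO AngII library, while under saline the genotypes overlapped. Clock averaged 8.99 ± 2.21 FPKM in KO AngII and 4.64 ± 1.51 FPKM in WT AngII aortas (SD, n = 5 each), a difference of log2(FPKM + 1) of 0.84 (SE 0.19, limma adjusted p = 0.0331). Over both treatments the KO minus WT difference was 0.56 (SE 0.13, adjusted p = 0.0281). Within WT, AngII minus saline was -0.68 (SE 0.19), with an unadjusted limma p of 0.0023 and an adjusted p of 1.00, and the 2 genotype differences were not shown to be unequal (interaction 0.57, adjusted p = 0.995).

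The WT AngII libraries with the lowest Clock differed from the rest in which transcript carried the reads. The main transcript, ENSMUST00000075159, stood at 0.788, 0.741, 3.604, 0 and 3.62 FPKM in WT AngII libraries and between 2.86 and 7.87 FPKM in the other 15 libraries. The longer coding transcript ENSMUST00000202651 went the other way in WT AngII, at 2.20, 2.28, 0.958, 3.06 and 0.994 FPKM. Replicates 1, 2 and 4 were thus low in the first and high in the second, and the other 2 WT AngII libraries, at 6.56 and 5.97 FPKM of Clock in all, still lay below the KO AngII range. Without any 1 of these replicates the adjusted p of Clock under AngII was 0.0965, 0.113 or 0.0899, and without KO AngII replicate 1, 2, 3 or 5 it was 0.0633, 0.0543, 0.0948 or 0.0769. Over both treatments the call was also lost without any 1 of several libraries, with adjusted p up to 0.0628. These were KO AngII replicate 3, KO saline replicate 4, WT AngII replicates 1, 2 and 4 and WT saline replicate 5. No unannotated model was set beside Clock, and the part of read assignment among transcripts in its levels was not tested.

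These counts were read against all genes. Under AngII 1 of 9 clock genes was called, against 1.83% of the 15010 genes tested (0.393% were higher in KO). Over both treatments 2 of 9 were called, against 4.15% of all genes (0.953% higher in KO), and 7 of 9 were higher in KO, with a median difference of 0.13 against -0.07 over all genes. Under saline 0 of 9 were called by limma, against 0.0133% of genes, 8 of 9 were higher in KO and the median difference was 0.27 against -0.04. Under AngII 5 of 9 were higher in KO, with a median of 0.06 against -0.10. At an unadjusted p under 0.05 there were 3 of 9 clock genes under AngII against 17.3% of all genes, 2 of 9 under saline against 7.37%, and 4 of 9 over both treatments against 20.2%.

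The direction of the calls over all genes depended on how libraries were scaled to each other, and the signs of Clock, Cry2 and Per1 between the genotypes did not. As deposited, 21.5% of the genes called under AngII and 23.0% of those called over both treatments were higher in KO. These shares were 66.8% and 63.6% with quantile normalization and 73.9% and 69.7% with TMM-like scaling (trimmed mean of M values), and 2.86% of all genes were called higher in KO over both treatments with either. The median difference of all genes under AngII was 0.03 with quantile normalization and 0.02 with TMM-like scaling, against -0.10 as deposited. Under AngII 7 of 9 clock genes were higher in KO with quantile normalization and 6 of 9 with TMM-like scaling. Clock and Cry2 kept higher values and Per1 lower values in KO under both scalings, and Clock stayed called under AngII, at 0.95 (limma adjusted p = 0.0104) and 0.97 (adjusted p = 0.00567). Cry2 over both treatments stayed called at 0.42 (adjusted p = 0.0301) and 0.45 (adjusted p = 0.0135), and with TMM-like scaling it was also called under AngII, at 0.54 (adjusted p = 0.0407).

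With the levels of 4 marker lists (skeletal muscle, B and plasma cells, white adipocytes, nerve and Schwann cells) as covariates, Cry2 over both treatments was 0.22 (adjusted p = 0.120) and Clock under AngII was 0.83 (adjusted p = 0.0643), so those calls were lost. The lymphocyte marker levels given above were lower in some KO libraries, and their part in the differences was not tested beyond that fit.

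**Figure D2:**
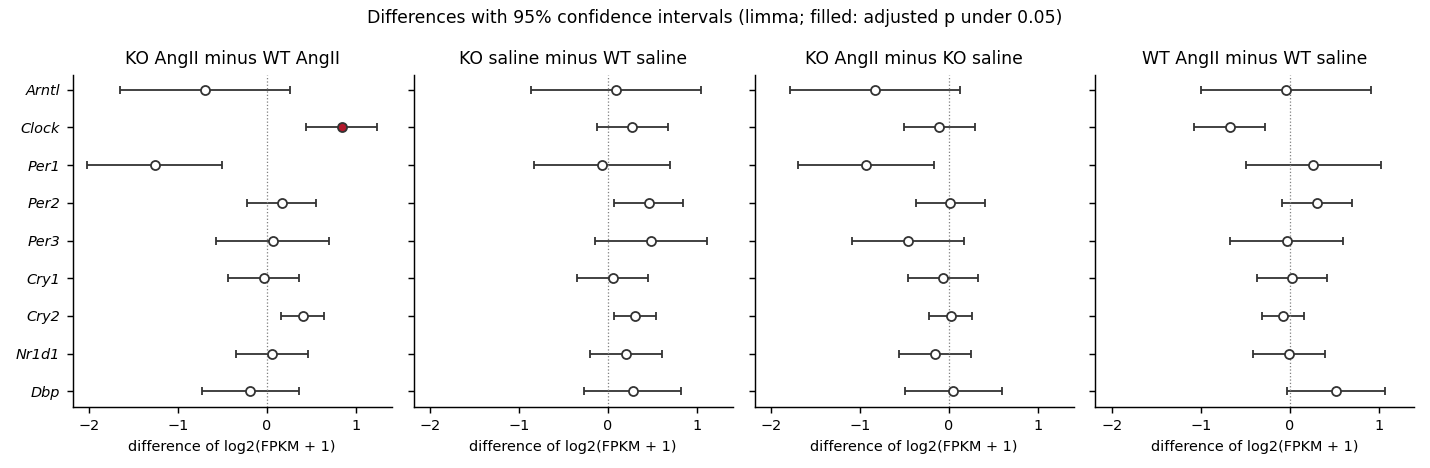
Differences of log2(FPKM + 1) for the 9 tested clock genes (horizontal axes) in 4 comparisons, with 95% confidence intervals from limma; filled points have an adjusted p under 0.05. Clock in KO AngII minus WT AngII, at 0.84, is the filled point, and intervals of Cry2 and Per1 in that comparison also leave out 0.

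Per1, an early-responding Period gene and repressor, was lowest in KO AngII, but the difference was not called. It stood at 1.75, 4.53, 3.04, 5.90 and 4.65 FPKM in KO AngII libraries and at 7.36, 19.2, 6.31, 8.56 and 15.2 FPKM in WT AngII libraries, with no overlap. The share of all genes without overlap was not counted. Under saline Per1 stood at 4.46, 15.0, 12.8, 8.30 and 4.39 FPKM in KO and at 12.3, 10.6, 10.04, 6.72 and 4.80 FPKM in WT libraries, which overlapped. The KO minus WT difference of log2(FPKM + 1) under AngII was -1.26 (SE 0.36), with an unadjusted limma p of 0.0026 and an adjusted p of 0.0757. KO AngII minus KO saline was -0.93 (SE 0.36, adjusted p = 0.991). Over both treatments the genotype difference was -0.67 (SE 0.26, adjusted p = 0.151). The genotype differences under AngII and under saline were not shown to be unequal (interaction -1.20, SE 0.51, limma adjusted p = 0.995).

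The annotated Per1 values split by library, and an unannotated model took the opposite course. Transcript ENSMUST00000102605, which starts downstream of the promoter shown above, carried 7.66 to 16.8 FPKM in KO saline replicates 2 and 4, WT AngII replicates 2 and 5 and WT saline replicate 2, and 0 in the other 15 libraries. ENSMUST00000166748 carried 7.09 FPKM in KO saline replicate 3. In those 6 libraries the unannotated model MERGE.3995.1 lay between 0.0447 and 1.36 FPKM, and in the other 14 between 4.79 and 15.7 FPKM. This model was picked after its values were seen, the files give no place or gene for it, and it is not assigned to Per1 here. Annotated Per1 plus that model came to 8.43, 9.32, 9.59, 15.8 and 10.6 FPKM in KO AngII, against 20.3, 19.5, 20.1, 20.1 and 15.7 FPKM in WT AngII. Under saline the same sum was 12.4, 15.6, 14.2, 8.34 and 13.5 FPKM in KO, against 18.5, 10.8, 25.8, 13.9 and 13.2 FPKM in WT. Of the KO AngII libraries 4 of 5 lay within the KO saline range of this sum, and replicate 4 alone lay above a WT AngII library (replicate 5). With the sum in place of Per1, the KO minus WT difference over both treatments was -0.55 and was called (limma adjusted p = 0.0401). Under AngII it was -0.80 and was not called (adjusted p = 0.0522). KO AngII minus KO saline was -0.24 (adjusted p = 0.991), against -0.93 for annotated Per1, and the interaction was -0.50 (adjusted p = 0.995). The model was picked for its opposite course in these same libraries, so fits of the sum cannot be read as results for Per1.

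Npas2, the relative of CLOCK, did not pass the filter and was not tested. It stood at 0.823, 0.192, 0.0276, 1.04 and 0.860 FPKM in KO AngII, at 0.379, 0.426, 0.553, 0.585 and 0.649 in KO saline, at 0.631, 0.482, 0.635, 0.443 and 0.880 in WT AngII, and at 1.15, 0.964, 1.21, 0.0298 and 0.190 in WT saline libraries. The 4 low libraries were KO AngII replicates 2 and 3 and WT saline replicates 4 and 5. In these 4 the unannotated model MERGE.315.1 stood at 0.837, 1.74, 1.66 and 1.15 FPKM, and it was listed at 0 in the other 16. Here too the model was picked after its values were seen and has no gene or place in the files.

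**Figure D3:**
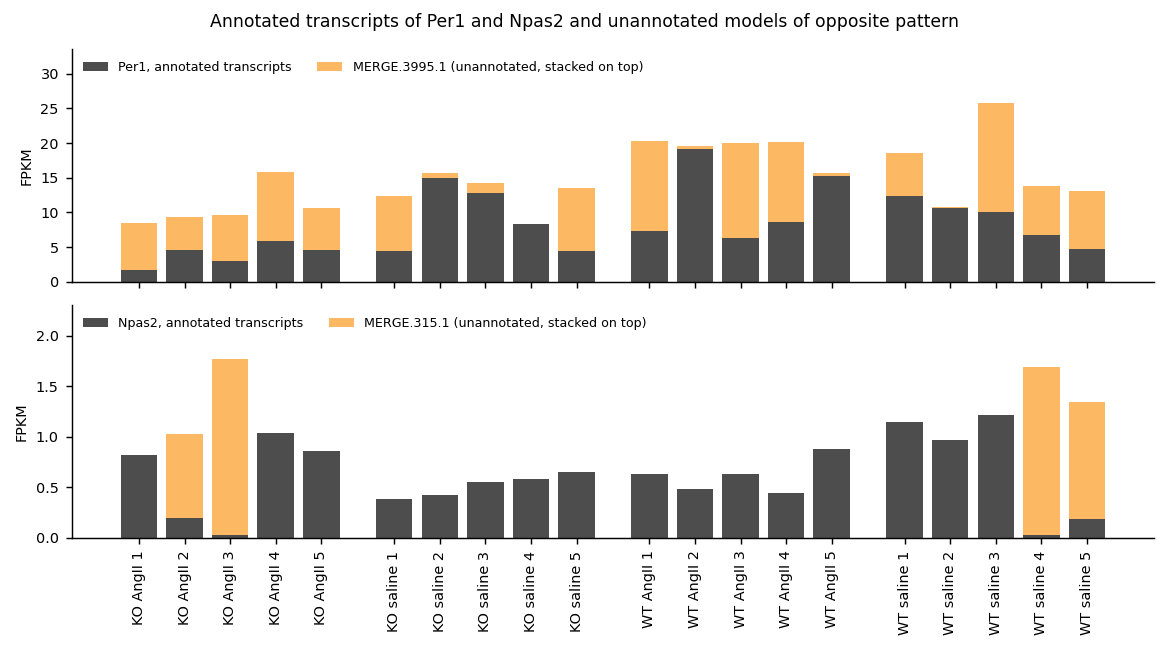
FPKM of Per1 and Npas2 in each library (dark bars) with 1 unannotated transcript model stacked on each (light bars). MERGE.3995.1 is at most 1.36 FPKM in 6 libraries and at least 4.79 FPKM in the other 14, and MERGE.315.1 is above 0 in only the 4 libraries where Npas2 is below 0.2 FPKM.

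Arntl, the activator, took 2 separate levels that ran across the groups. It stood at 0.258, 0.281, 0.648, 0.429 and 0.290 FPKM in KO AngII, at 3.11, 0.904, 4.54, 0.426 and 0.431 in KO saline, at 0.396, 3.35, 0.489, 0.320 and 3.56 in WT AngII, and at 0.414, 2.92, 3.36, 0.818 and 0.448 in WT saline libraries. In all, 6 libraries lay between 2.92 and 4.54 FPKM, 2 in each group but KO AngII, and 14 lay between 0.258 and 0.904 FPKM, a gap of 3.23-fold. The counts behind these values were 600 to 989 reads in the 6 and 49 to 200 reads in the 14. Transcript ENSMUST00000047321 carried the split, at 2.84 to 4.51 FPKM in the 6 and 0.106 to 0.889 FPKM in the 14. Of 16637 unannotated models, searched after these values were seen, 1 was lower in each of the 6 than in every one of the 14, and it did not reach 1 FPKM in all 14. The part of transcript assembly and read assignment in the Arntl levels was not tested beyond that search. The KO AngII group held 0 of the 6, and its difference from WT AngII was -0.70 (SE 0.46, limma adjusted p = 0.448). KO saline replicates 1 and 3, the KO libraries of high Arntl, were also those of highest B and plasma cell marker level (mean log2(FPKM + 1) of 5.52 and 5.51, against 0.870 to 2.17 in the other 3). In WT AngII the 2 high libraries had marker levels of 5.68, the highest of the group, and 4.99, against 4.36 to 5.02 in the other 3. In WT saline the 2 high libraries had marker levels of 4.56 and 5.05, inside the range of 3.52 to 5.71 of the other 3, and the KO AngII libraries, all low in Arntl, spanned 0.938 to 5.04. The part of these cells in the Arntl level was not tested.

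The remaining genes did not differ between groups by the test. Per2, a Period repressor, stood at 3.28, 5.48, 4.75, 4.60 and 5.11 FPKM in KO AngII and at 3.26, 5.68, 6.27, 3.67 and 4.36 in KO saline, against 3.08, 4.22, 4.31, 4.49 and 3.94 in WT AngII and 3.93, 2.23, 4.69, 2.31 and 2.54 in WT saline libraries. All groups overlapped, and KO minus WT under saline was 0.46 (SE 0.19, limma adjusted p = 0.589). Per3, whose protein stabilises other PER proteins, ranged from 0.477 to 3.68 FPKM, and only 64.0% of its FPKM lay in its coding transcript. Its KO minus WT difference under saline was 0.49 (SE 0.30, adjusted p = 0.774).

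Nr1d1, the repressor of Arntl and Cry1, stood at 86.8, 100.4, 62.5, 66.7 and 67.6 FPKM in KO AngII and at 75.6, 93.6, 63.4, 101 and 92.0 in KO saline, against 82.5, 74.2, 99.2, 75.6 and 44.0 in WT AngII and 76.9, 67.9, 72.5, 61.6 and 89.6 in WT saline libraries. Groups overlapped in every comparison. Nr1d1 shares 263 of its 3077 exon bases with Thra on the opposite strand (mean 42.1 FPKM), and reads there cannot be told apart unless the counting used strand, which is not stated. Cry1, the other cryptochrome, stood at 2.78, 3.09, 5.13, 4.42 and 4.20 FPKM in KO AngII and at 4.99, 3.07, 6.29, 3.24 and 3.47 in KO saline, against 3.39, 4.21, 3.55, 4.25 and 4.63 in WT AngII and 3.35, 3.05, 4.21, 5.99 and 3.40 in WT saline libraries. Its KO minus WT difference over both treatments was 0.01, with a 95% confidence interval of -0.27 to 0.29.

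Dbp, the D-box activator and a direct target of the ARNTL and CLOCK pair, stood at 47.2, 40.1, 43.8, 36.9 and 52.4 FPKM in KO AngII and at 33.1, 45.6, 40.2, 71.7 and 30.5 in KO saline, against 71.4, 36.7, 58.7, 73.8 and 27.6 in WT AngII and 40.2, 43.7, 24.6, 32.4 and 35.5 in WT saline libraries. In WT AngII 3 of 5 libraries lay above the whole WT saline range. AngII minus saline in WT was 0.52 (SE 0.26, limma adjusted p = 1.00), with a 95% confidence interval of -0.03 to 1.07. Dbp shares 539 of 2993 exon bases with Sphk2 on the opposite strand (mean 12.3 FPKM).

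AngII against saline gave 0 called clock genes and 0 called genes in all in each genotype (limma, 0.0% of 15010), with 595 genes (3.96%) in KO and 458 (3.05%) in WT at an unadjusted p under 0.05, 1 of them a clock gene in each (Per1 in KO, Clock in WT). In WT, 4 of 9 clock genes were higher and 5 lower under AngII, with a median difference of -0.01 against 0.02 over all genes. In KO, 3 were higher and 6 lower, with a median of -0.11 against -0.06. Clock had the smallest p over both genotypes, at -0.39 (SE 0.13), with an unadjusted limma p of 0.0091 and an adjusted p of 0.933.

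Of 20 further clock genes on a list drawn up with earlier results of these data known, 18 were tested. By limma 0 were called in any of the 7 comparisons. At an unadjusted p under 0.05 there were 3 of 18 in WT AngII minus WT saline (Ciart, Wee1 and Btrc), against 3.05% of all genes there. Between KO and WT under AngII there were 2 of 18, against 17.3% of all genes. The interaction had 2 of 18, against 3.34%, and the other 4 comparisons had 0 or 1, against 3.41% to 20.2%. Over both treatments 9 were higher and 9 lower in KO, with a median of 0.02. Ciart, a repressor of the ARNTL and CLOCK pair, had the smallest p of the list under AngII. It stood at 2.18, 2.95, 2.46, 1.68 and 2.32 FPKM in KO AngII and at 7.53, 5.62, 4.75, 5.02 and 2.21 FPKM in WT AngII libraries. Only WT replicate 5 lay within the KO range, and the difference of log2(FPKM + 1) was -0.80 (SE 0.23, limma adjusted p = 0.0733). WT AngII minus WT saline for Ciart was 0.70 (SE 0.23, limma adjusted p = 1.00). Wee1, a cell cycle kinase under clock control, differed by -0.52 between KO AngII and WT AngII (SE 0.18, adjusted p = 0.141). Btrc, part of the ligase that marks PER proteins for destruction, had a difference of -0.38 in WT AngII minus WT saline (SE 0.18, adjusted p = 1.00).

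Covariation between libraries was measured as the correlation of deviations of log2(FPKM + 1) from the group means, over 45 pairs of the 10 genes. Because Arntl fell into 2 separate levels, its 9 pairs were taken within the 14 lower libraries, and the other 36 pairs over all 20. Of the 45 pairs 1 was called, Cry1 with Nr1d1, which moved in opposite directions. Of all pairs 24 had a positive and 21 a negative r, with a median of 0.06.

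Libraries high in Nr1d1 for their group were low in Cry1. Pearson's r was -0.73 (n = 20, permutation p = 6e-05 over 100000 shuffles within groups, adjusted p = 0.0027), and Spearman's rho was -0.77 (permutation p = 0.00033, adjusted p = 0.0149). The sign was negative in 4 of 4 groups, and r was -0.69 without the 2 libraries farthest from the median of Cry1. Within KO libraries r was -0.94 (permutation, adjusted p = 0.0855) and within WT libraries -0.55 (permutation, adjusted p = 0.562); the difference between genotypes was not tested. With the 4 marker list levels as covariates r was -0.38 (permutation, adjusted p = 0.450), so the relation was not distinguishable there from the spread between libraries. The call was also lost with quantile normalization (r = -0.54, permutation, adjusted p = 0.0600), with group means kept (-0.68, adjusted p = 0.0585) and without KO saline replicates 1 and 3 (-0.66, adjusted p = 0.0585). The pair fell outside the rule for named pairs and was named after its value was seen.

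A further 4 pairs had an unadjusted p under 0.05 and did not pass the adjustment. Per2 with Per3 had r = 0.63 (permutation p = 0.00323, adjusted p = 0.0727; rho = 0.69, adjusted p = 0.0209; r = 0.65 without the 2 farthest libraries). Per1 with Per2 had r = 0.58 (adjusted p = 0.233, permutation), Cry2 with Nr1d1 0.56 (adjusted p = 0.259) and Clock with Per2 0.47 (adjusted p = 0.345). Each of these was positive in 4 of 4 groups.

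No relation of Arntl with Nr1d1, Dbp or Cry1 passed the adjustment. With the level of Arntl added to the group means over all 20 libraries, as planned, the limma slope was -0.27 for Nr1d1 (SE 0.08, unadjusted p = 0.0039, adjusted p = 0.0750) and -0.34 for Dbp (SE 0.11, unadjusted p = 0.0073, adjusted p = 0.0766). These slopes span both levels of Arntl, and 29.0% of all tested genes had an unadjusted p under 0.05 in that fit. Within the 14 lower libraries, Arntl with Nr1d1 had r = -0.48 (rho = -0.46, permutation p = 0.116, adjusted p = 0.459; r = -0.45 without the 2 farthest libraries). Arntl with Dbp had r = -0.24 (rho = -0.35, permutation p = 0.651, adjusted p = 0.839; r = -0.36 without the 2 farthest libraries). The r with Dbp was -0.69 without KO saline replicate 5 and -0.0086 without KO saline replicate 4. Arntl with Cry1 had r = 0.58 (rho = 0.47, permutation p = 0.0575, adjusted p = 0.416; r = 0.75). Nr1d1 with Dbp, both targets of the ARNTL and CLOCK pair, had r = 0.49 (n = 20, rho = 0.39, permutation p = 0.0796, adjusted p = 0.416), and 0.21 without the 2 farthest libraries. The 9 pairs with Arntl ran from -0.51 to 0.58 and the 8 other pairs with Dbp from -0.38 to 0.49. Within the 6 libraries of higher Arntl, levels not centred on groups, the smallest adjusted p of the 9 pairs was 0.179 (exact permutation).

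**Figure D4:**
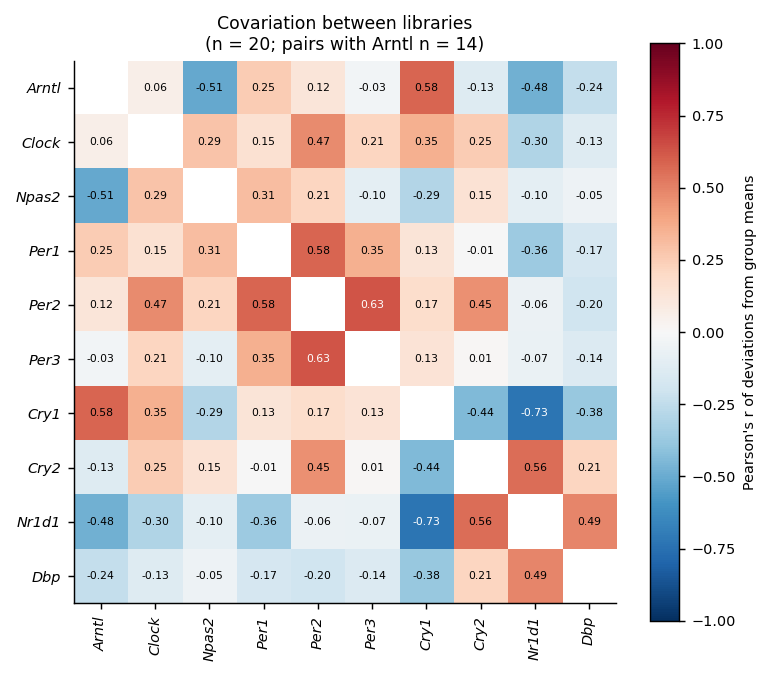
Pearson's r of deviations from the group means for the 45 pairs of clock genes (n = 20 libraries, n = 14 for pairs with Arntl), with colour from -1 to 1. The strongest cell is Cry1 with Nr1d1 at -0.73, and the Period genes form a block of positive values.

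**Figure D5:**
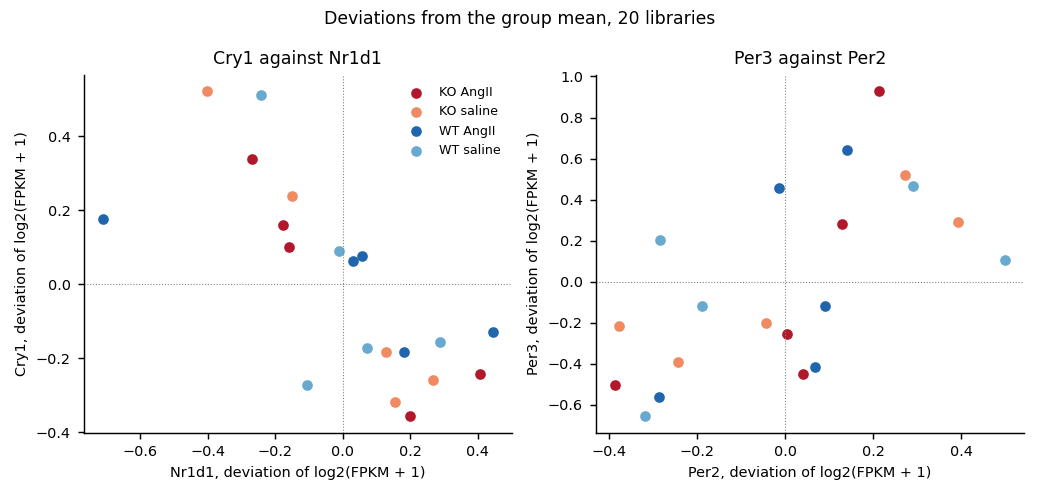
Deviation of each library from its group mean of log2(FPKM + 1), for Cry1 (vertical) against Nr1d1 and Per3 (vertical) against Per2; points are 20 libraries coloured by group. Cry1 declines as Nr1d1 increases (r = -0.73), and Per3 increases with Per2 (r = 0.63).

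Over all tested genes, 2 of 15009 (0.0133%) were tied to Arntl and 0 (0.0%) to Dbp when the anchor's level was added to the group means in limma. At an unadjusted p under 0.05 there were 4346 genes for Arntl and 1102 for Dbp. The 2 tied to Arntl were Ptma (prothymosin alpha, a chromatin-associated acidic protein) and Igkv4-63 (an immunoglobulin kappa variable segment), both rising with it. By the likeness rule, the genes with the highest r with Arntl over 20 libraries were Ptma (0.89), Igkv4-63 (0.85), Rpl36a-ps3 (0.84), Kdm5d (0.83), Nsmce2 (0.82) and Zfp85 (0.81). The lowest were Ehd2 (-0.81), Gnai1 (-0.79), Mlf2 (-0.77), Fads3 (-0.75), Ppip5k1 (-0.75) and Aoc3 (-0.74). These values pool the 2 levels of Arntl. Within the 14 lower libraries r of the first 6 ran from -0.0469 to 0.66 and that of the last 6 from -0.46 to 0.42. For Dbp the highest were Slc1a5 (0.75), Myo19 (0.75), Taok3 (0.74), Lonp2 (0.74), Cfap298 (0.70) and Gstz1 (0.69), and the lowest Zbtb40 (-0.85), Gspt1 (-0.79), Zfp943 (-0.77), Plekhm3 (-0.75), Icam2 (-0.74) and Slc20a1 (-0.74). None of the 20 further clock genes was called as tied to either.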

How the data were processed

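RNA-seq of 20 abdominal aortas was analysed from 1 deposited table per library of values for 126719 transcript models, read as FPKM (the authors' scaling to transcript length and library total). The unit is not named in the labels and was taken from the values: times transcript length, 99.2% to 99.6% of low values lay within 0.1 of a whole read. Build mm10 and limma are named in the submitters' processing notes, and neither aligner, assembler nor counter is stated.

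FPKM was summed per gene over 109913 transcripts matched to GENCODE M21, while 169 did not match and 16637 unannotated models (10.6% to 12.9% of FPKM) were left out. Counting error was not modelled. Group means of log2(FPKM + 1) were fitted for 15010 genes over 20 libraries with limma 3.58.1 (trend, robust) in R 4.3.3, with 2-sided tests in 7 comparisons, calls at a p under 0.05 after Benjamini-Hochberg adjustment, and a check on simulated data. Nothing says whether mice shared a cage, litter or day, and p-values measure the spread between these libraries. Pairs were tested by 100000 two-sided shuffles within groups (10000 for alternatives), adjusted over 45 pairs. Python 3.11.15, numpy 2.4.6, pandas 2.3.3, scipy 1.17.1 and matplotlib 3.10.9 were used.

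The planned pairs with Arntl pooled all libraries, and the split of its level led to use of the 14 lower ones. The labels do not say whether replicate numbers pair libraries. Correlations across genes of same-numbered libraries' deviations ran from -0.52 to 0.41, and those of different-numbered libraries from -0.65 to 0.64. These ranges cannot exclude a day or batch shared by replicate number. Alternatives were other scalings, filters, variance models, covariates and libraries, and leaving out each library. The genes, lists and tests were chosen with earlier results of these data known. Named are all 10 members, the 3 of smallest p per comparison, pairs with Arntl and Dbp in ranges or singly, the 6 genes most and least like each anchor without predicted loci, and up to 4 of the further clock genes per comparison.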

Additional observations from a re-analysis of the deposited data

How the results depend on the processing

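Counts are of clock genes or all genes called by limma, unless pairs are named. For AngII against saline 0 clock genes were called under every alternative run in either genotype, or over both. All genes called were 2 with library weights in each genotype and over both, 11 without a filter in WT, and 1 without a filter and 2 with 4 tissue covariates over both. The interaction called 1 gene without a filter. KO against WT under saline called 1195 genes and 1 clock gene (Cry2, adjusted p = 0.0454) with library weights, 869 with 4 tissue covariates, 20 without a filter, 49 without KO saline replicates 1 and 3 together, and 1 with quantile normalization, a filter at 5 FPKM, the compared groups alone, a replicate block or limma-voom. KO against WT under AngII called 1913 genes and 3 clock genes with library weights, 790 and 3 without KO saline replicates 1 and 3, 1 and 0 with the compared groups alone, 50 and 0 with 4 tissue covariates, 70 genes with a replicate block, 160 with limma-voom, and 2 clock genes with TMM-like scaling. Over both treatments 4039 genes were called with library weights, 1172 without a filter, 3042 without KO saline replicates 1 and 3, and 1430 with 4 tissue covariates, which called 1 clock gene (Clock).

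Leaving out 1 library at a time called 0 to 1 genes for AngII in WT, 0 to 4 in KO, 0 to 5 over both, 1 to 4 for KO against WT under saline, 9 to 491 under AngII (0 to 3 clock genes) and 281 to 1007 over both treatments (1 to 2 clock genes). Cry2 over both treatments kept an adjusted p between 0.00763 and 0.0467. Genes tied to Arntl ranged from 0 to 2514 and to Dbp from 0 to 1, and called pairs from 1 to 2. Genes tied to Arntl numbered 0 with quantile normalization, TMM-like scaling, 4 tissue covariates or without KO saline replicates 1 and 3, 1 with a pseudocount of 0.1, and 3650 with a replicate block; those tied to Dbp numbered 1 with quantile normalization or 4 tissue covariates. Called pairs numbered 2 with Spearman's rho or a replicate block, 4 with TMM-like scaling, and 0 with group means kept, within WT or KO, with 4 tissue covariates, without KO saline replicates 1 and 3, or without the 2 libraries farthest from the median of Arntl (KO saline replicate 3 and WT AngII replicate 5). Arntl with Nr1d1 turned to 0.15 with quantile normalization. The causes were not tested.

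Limits: 5 mice a group, no hour of collection, FPKM shared among transcript models, and lymphocyte and muscle RNA that differs between libraries. No pairing by replicate number is stated in the labels. The replicate block changed no limma call of a clock gene, but with it Per2 with Per3 became a called pair (r = 0.75, permutation, adjusted p = 0.0270). It also called 70 genes under AngII, against 275 in the main fit, and tied 3650 genes to Arntl, against 2. Adding unannotated models, and leaving out KO saline replicates 1 and 3 together, were chosen after the data were seen.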

Other observations

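Per1 is known to respond to glucocorticoids and to growth signals, and 2 lists of such genes were read beside it. Of 10 glucocorticoid-induced genes 2 were higher and 8 lower in KO AngII than in WT AngII, and 0 were called by limma, against 1.83% of all genes. At an unadjusted p under 0.05 there were 2 of 10, against 17.3% of all genes. The median difference was -0.45 against -0.10 over all genes. Tsc22d3 (GILZ), a glucocorticoid-induced inhibitor of inflammation, had the smallest p of them under AngII, at -1.12 (SE 0.36, limma adjusted p = 0.113). Under saline 2 of the 10 were higher and 8 lower in KO. The 2 with an unadjusted p under 0.05 there were higher: Zbtb16 at 1.36 (SE 0.38, limma adjusted p = 0.362) and Fkbp5 at 1.10 (SE 0.47, adjusted p = 0.626). Over both treatments 2 were higher and 8 lower, 0 were called, and 5 had an unadjusted p under 0.05, against 20.2% of all genes. Of 15 immediate early genes 5 were higher and 10 lower in KO under AngII, with a median of -0.37 and 0 called. At an unadjusted p under 0.05 there were 4 of 15 (Junb, Klf2 and Ier2 lower and Jun higher in KO), against 17.3% of all genes. Over both treatments 1 of the 15 was called, against 4.15% of all genes. It was Klf2, a flow-responsive transcription factor of endothelium, at -0.67 (SE 0.17, limma adjusted p = 0.0376). Median differences in that comparison were -0.02 for 8 endothelial, -1.76 for 6 B and plasma cell and -1.44 for 6 T and NK cell markers. The cells behind the Klf2 difference were not tested. The cold-inducible Cirbp and Rbm3, which follow body temperature over the day, differed by -0.08 and 0.05 over both treatments (SE 0.18 and 0.19) and were not called.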
